A study of Mus musculus with 2 samples.

Results

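The 10 genes described here encode subunits of the BAF (mammalian SWI/SNF) chromatin remodelling complex that exchange with one another as neural progenitors become neurons, together with the paralogs and ATPases they are set against. They were chosen by gene symbol, and all 10 were found among the 43346 genes measured. The progenitor subunits were Actl6a, Phf10 and Ss18, the neuronal subunits were Actl6b, Dpf1, Dpf3 and Ss18l1, and the remaining 3 were the general subunit Dpf2 and the ATPases Smarca2 and Smarca4.

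BAF complexes use the energy of ATP to move or evict nucleosomes. In mouse neural progenitors the complex carries Actl6a, Phf10 and Ss18, and in postmitotic neurons these positions are taken by Actl6b, Dpf1 or Dpf3, and Ss18l1. The microRNAs miR-9-3p (also called miR-9*) and miR-124 repress Actl6a in developing mouse neurons, and the repressor REST restrains both microRNAs in cells that are not yet neurons.

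The study measured total RNA from the midbrain of healthy, untreated B6NCrl mouse embryos at embryonic day 11.5. Its single group held 2 biological replicates, with 109 embryos pooled for replicate 1 and 88 for replicate 2, each pool of mixed sex. RNA over 200 nt in length, 10 ng a library, was used. With no second condition, paralogs were compared with each other inside each library, and then the libraries were compared for the same genes. Pools of whole midbrain mix progenitors, neurons and other cells, so fewer cells of a type and less RNA per cell cannot be told apart in any level below.

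Depth was 41760197 expected counts for replicate 1 and 49256468 for replicate 2, and genes took 38884247 and 45975100 of these. All 10 markers of neural progenitors, all 10 of postmitotic neurons and all 8 of midbrain reached 1 TPM in both libraries, where TPM is a transcript's relative abundance, corrected for length and scaled to a fixed total. Progenitor markers were led by Vim, Fabp7 and Hes5, neuronal markers by Tubb3, Stmn2 and Gap43, and midbrain markers by Otx2, Pax3 and Lmx1a. The midbrain markers summed to 238.4 and 245.6 TPM, of which Otx2 alone had 169.4 and 171.3 TPM. Their median was 7.71 and 9.85 TPM, against 5.165 and 3.78 TPM for the listed forebrain markers. None of the 9 hindbrain Hox genes reached 1 TPM, and Hoxd4 was at 0 in both. Other tissue was present, with 8 of 8 erythroid markers (19601 and 19645 TPM summed), 6 of 6 endothelial (100.2 and 100.9 TPM), 6 of 6 mesenchymal (708 and 675 TPM), 6 of 7 microglial and macrophage (67.7 and 70.6 TPM) and 6 of 8 forebrain markers (43.7 and 37.5 TPM). Their part in the members' levels was not tested.

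The sequence that ties the microRNA to the progenitor subunit is short. Mature miR-9-3p, from RefSeq (GRCm38.p6), is encoded by Mir9-1, Mir9-2 and Mir9-3 on chromosomes 3, 13 and 7. It is shown with its seed, bases 2 to 8, in capitals, above the places in the 3′ untranslated regions of Actl6a and Smarca2 that hold the complementary heptamer AGCTTTA, also in capitals.
miR-9-3p: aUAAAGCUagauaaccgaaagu
Actl6a: tcacctcaacgtctgtAGCTTTAgtacact
Smarca2: attgtcatctagaactAGCTTTAgggtagt
The Actl6a stretch lies on the plus strand at mm10 chr3:32726624-32726653, in the 371-nt 3′ untranslated region of Actl6a-201, and its heptamer starts 38 bases after the stop codon. The Smarca2 stretch lies on the plus strand at mm10 chr19:26777486-26777515, in the 905-nt region of Smarca2-209. Smarca2-209 itself was barely read (0.02 and 0 TPM), but in GENCODE M21 the same heptamer also lies after the stop codon of the full-length Smarca2-201. In each member the transcript with the longest complete coding sequence was searched, and the other 8 members held 0 matches there. Over 20577 genes, 10.2% held the heptamer, and among the 1857 genes whose region was within 20% of the length of that of Actl6a the share was 2.42%. Among the 2521 genes matched in the same way to Smarca2-209 it was 6.86%. The seed complement of miR-9-5p, ACCAAAG, was found in 0 of the 10 members and in 11.0% of all genes. A match describes these letters and is no evidence of binding.

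All 10 members were detected at 1 TPM or more in both libraries, against 32.1% of all genes and 58.2% of protein-coding genes. Their mean levels ran from 9.50 ± 1.26 TPM for Dpf3 to 209.9 ± 9.98 TPM for Actl6a (SD, n = 2). The median detected protein-coding gene had 18.6 TPM in each library. Actl6a lay in the top 5.06% and 5.50% of detected protein-coding genes, and Dpf3, at the other end, in the top 64.8% and 69.6%. From high to low the order was Actl6a, Dpf2, Smarca4, Ss18, Dpf1, Smarca2, Phf10, Actl6b, Ss18l1 and Dpf3. For 7 of the 9 neighbours in that order the deposited TPM intervals did not overlap in either library. The exceptions were Phf10 and Actl6b, whose intervals overlapped in both, and Smarca2 and Phf10, whose intervals overlapped in replicate 2. These intervals describe the uncertainty of a level within 1 library and not the spread between libraries. They are not limited to assigning reads among transcripts, since Ss18l1, with 1 transcript, had 12.6 to 13.9 TPM in replicate 1. The sources used here do not give their level.

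**Figure D1:**
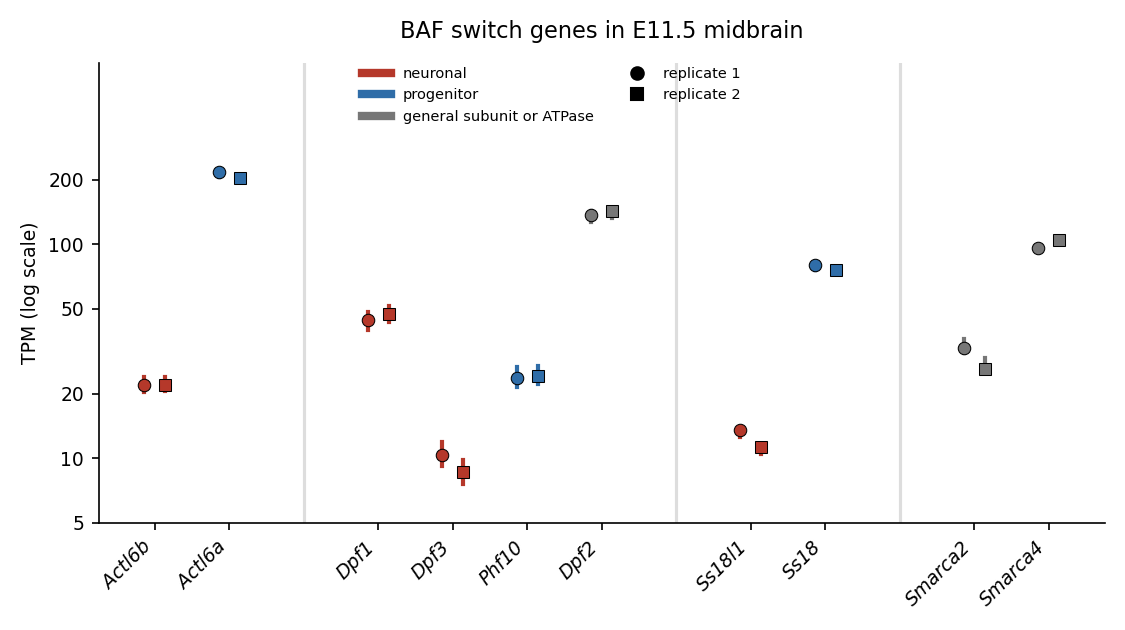
TPM of the 10 members on a log axis, in replicate 1 (circles) and replicate 2 (squares), with the deposited interval of each value as a bar; grey lines separate the positions in the complex. Actl6b, Ss18l1 and Dpf3 lie below Actl6a, Ss18 and Phf10 in both libraries, while Dpf1 lies above Phf10, and the Smarca4 points lie just above their own bars.

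At the actin-related position (BAF53) the progenitor paralog prevailed. Actl6b, the neuronal subunit, which is needed in mouse for activity-dependent dendrite growth, had 22.0 TPM in replicate 1 and 22.05 TPM in replicate 2, from 803 and 912 expected counts. Actl6a, its progenitor paralog, had 216.9 and 202.8 TPM, from 9851 and 11645 expected counts. Both Actl6b values lay far below both Actl6a values, and the intervals did not overlap in either library. The log2 ratio of Actl6b over Actl6a was -3.25 ± 0.07 (SD, n = 2), so that Actl6b was 9.49-fold lower, and it made up 9.21% and 9.81% of the summed TPM of this position.

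Both genes were read mainly from 1 coding transcript. Actl6b-205 held 88.1% and 81.2% of Actl6b TPM, and Actl6a-201 held 77.5% and 85.9% of Actl6a TPM. The next largest Actl6a transcript, Actl6a-204, retains an intron and held 12.5% in replicate 1 and 7.44% in replicate 2. Actl6a overlaps Mrpl47 on the opposite strand over 1577 bases, and the sources used here do not say whether counting used strand, so some Actl6a reads could belong to that gene. Mrpl47 itself had 1425 and 1660 expected counts, and how reads of the overlap were divided between the genes was not tested.

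The 250 bases before the RefSeq starts of both genes are shown because the paralogs differed most here among the neuronal and progenitor pairs (RefSeq, GRCm38.p6, plus strand, chr5:137553296-137553545 and chr3:32708296-32708545). In GENCODE M21 the leading transcripts start a little earlier, so the last 26 bases of the Actl6b stretch lie inside Actl6b-205 and the last 39 of the Actl6a stretch inside Actl6a-201, and a minor Actl6a transcript starts 2248 bases before the RefSeq start. Capitals mark the motif CCAAT, or ATTGG where it lies on the other strand.
Actl6b: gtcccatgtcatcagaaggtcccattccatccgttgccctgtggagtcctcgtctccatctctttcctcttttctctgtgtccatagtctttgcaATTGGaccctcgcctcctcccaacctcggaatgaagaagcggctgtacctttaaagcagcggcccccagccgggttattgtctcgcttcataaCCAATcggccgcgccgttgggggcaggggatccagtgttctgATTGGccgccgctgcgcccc
Actl6a: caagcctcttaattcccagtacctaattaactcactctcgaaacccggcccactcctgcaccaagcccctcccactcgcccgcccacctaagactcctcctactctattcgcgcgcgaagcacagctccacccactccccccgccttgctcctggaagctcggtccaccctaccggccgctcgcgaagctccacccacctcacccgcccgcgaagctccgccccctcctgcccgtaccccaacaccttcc
The Actl6b stretch held 3 CCAAT matches and the Actl6a stretch held 0, whereas GGGCGG, searched on both strands, matched 0 times for Actl6b and 3 times for Actl6a. Of 32851 upstream stretches of the same length, 33.8% held at least 1 CCAAT and 10.1% at least 2, and 32.7% held GGGCGG. Upstream sequence of 9 members was searched, and that of the progenitor subunit Ss18 was left out. The Dpf3 and Smarca2 stretches lie far before the starts of the leading transcripts, Dpf3-203 (base 83350895) and Smarca2-215 (base 26710548). The RefSeq starts of these genes are at bases 83487736 and 26605160. Of the neuronal subunits Dpf1 held 2 CCAAT matches, Dpf3 held 3 and Ss18l1 held 0, and of the others Dpf2 held 1 while Phf10, Smarca2 and Smarca4 held 0. GGGCGG did not divide the groups, with 4 matches for Dpf1 and 1 each for Dpf3 and Ss18l1, against 5 for Phf10, 0 for Dpf2, 2 for Smarca2 and 3 for Smarca4. These motifs were picked after the stretches had been seen, and the counts are a description of sequence.

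At the PHD-finger position (BAF45), whose subunits can bind modified histones, the order of neuronal and progenitor genes was mixed. Dpf1, a neuronal subunit, had 44.1 TPM in replicate 1 and 47.1 TPM in replicate 2, from 1620 and 2106 expected counts. Dpf3, the other neuronal subunit, also known for its role in heart and muscle development, had 10.4 and 8.61 TPM, from 368 and 321 expected counts. Phf10, the progenitor subunit, which also belongs to the related PBAF complex, had 23.7 and 24.3 TPM, from 1393 and 1573 expected counts. Phf10 therefore stood between the neuronal genes, below Dpf1 and above Dpf3 in both libraries. Dpf2, the general subunit, exceeded all 3, with 136.8 and 142.2 TPM.

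Dpf1 over Phf10 gave a log2 ratio of 0.92 ± 0.04, or 1.90-fold higher, and Dpf3 over Phf10 gave -1.33 ± 0.22, or 2.52-fold lower (SD, n = 2). In both cases the intervals were apart in both libraries. Against Dpf2 the log2 ratios were -1.61 ± 0.03 for Dpf1, -3.87 ± 0.23 for Dpf3 and -2.53 ± 0.01 for Phf10. Of the summed TPM of the 4 genes, Dpf1 held 20.5% and 21.2%, Dpf3 4.83% and 3.87%, Phf10 11.0% and 10.9%, and Dpf2 63.6% and 64.0%. Of the 4 pairs of a neuronal over a progenitor gene, 3 had the neuronal gene lower in both libraries, and Dpf1 over Phf10 was the exception.

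Which transcripts carried these levels bears on the size of both ratios. Phf10-201, its only full-length coding transcript with 5% or more, held 57.6% and 57.2% of Phf10 TPM. Phf10-203, annotated as a target of nonsense-mediated decay, held 33.2% and 28.1% of the TPM but more of the expected counts (800 and 832, against 572 and 697 for Phf10-201), being 3901 nt long against 1663 nt. Phf10 also overlaps 1600012H06Rik on the opposite strand over 14562 bases, and that gene had 1532 and 1728 expected counts, so its reads cannot be fully assigned. When expected counts were divided by the length of the longest coding transcript, the log2 ratio of Dpf1 over Phf10 became -0.15 and its call was lost. On full-length coding transcripts alone it was 0.97, and on all protein-coding transcripts 1.59. For Dpf3 over Phf10, protein-coding transcripts alone gave -0.54 and the intervals overlapped, while full-length coding transcripts gave -1.90 and counts over length -3.0, both with intervals apart. The intervals under these settings were not the deposited gene intervals. Bounds of the transcripts were summed, and counts over length took Poisson bounds, so a call lost or kept is not the same test as on gene TPM. Dpf3 was spread over 5 transcripts with 5% or more, and the short Dpf3-202 and Dpf3-203, whose coding sequence is incomplete, held 30.1% and 32.7% of its TPM in replicate 1 and 28.4% and 30.8% in replicate 2. Dpf2-201, a transcript annotated for nonsense-mediated decay, held 36.1% and 38.7% of Dpf2 TPM beside the coding Dpf2-202 with 43.8% and 43.7%.

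**Figure D2:**
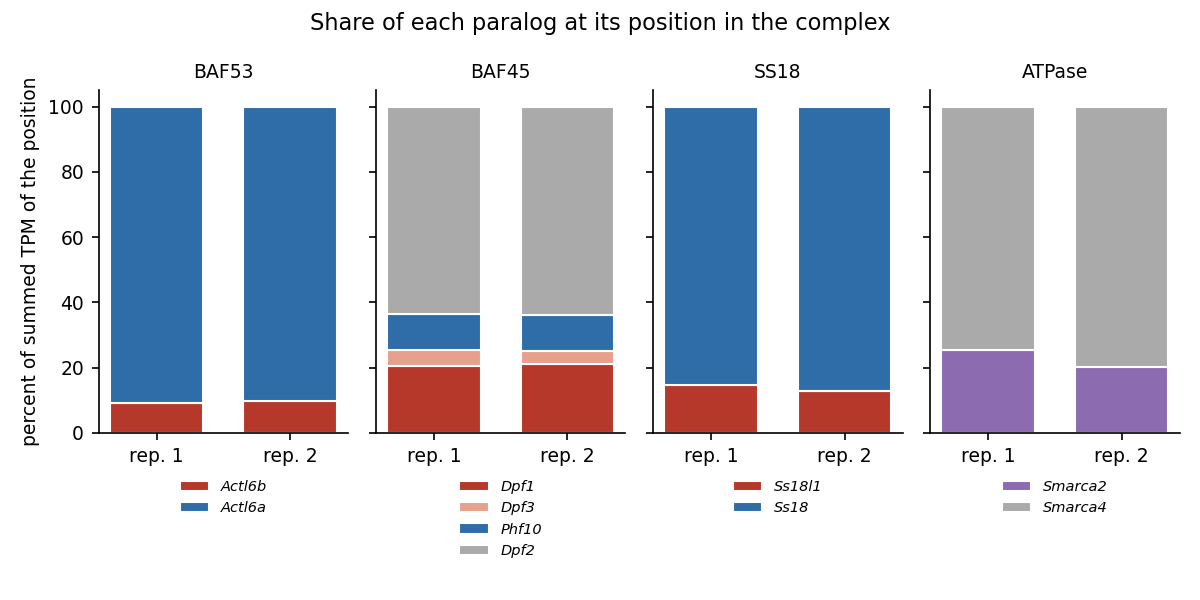
Share of the summed TPM at each position of the complex, in percent, with 1 bar per library and 1 colour per paralog (neuronal in red, progenitor in blue, general or alternative subunits in grey and purple). Actl6b, Ss18l1 and Smarca2 make up 9.21% to 25.4% of their positions, and Dpf2 holds 63.6% and 64.0% of the BAF45 position.

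At the SS18 position the progenitor paralog again prevailed. Ss18l1 (CREST), the neuronal subunit and a calcium-responsive transactivator, had 13.6 TPM in replicate 1 and 11.2 TPM in replicate 2, from 1540 and 1528 expected counts. Ss18, its progenitor paralog, had 79.7 and 76.1 TPM, from 6392 and 7222 expected counts. The intervals were apart in both libraries, and the log2 ratio of Ss18l1 over Ss18 was -2.65 ± 0.14 (SD, n = 2), or 6.26-fold lower. Ss18l1 made up 14.5% and 12.9% of the position. It has 1 transcript in the tables, while Ss18 has 3, all coding, of which Ss18-203 held 86.5% and 90.4%.

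Of the ATPases, Smarca4 (BRG1), which neural progenitors need, exceeded its alternative Smarca2 (BRM). Smarca2 had 32.7 TPM in replicate 1 and 26.2 TPM in replicate 2, and Smarca4 had 96.2 and 104.6 TPM. Smarca2 was the lower in both libraries, at a log2 ratio of -1.77 ± 0.31 (SD, n = 2) or 3.42-fold, with intervals apart. The maximum likelihood TPM of Smarca4, the value given here, lay just above its own interval in both libraries (92.5 to 95.7 TPM and 101.1 to 104.2 TPM), and the gap to Smarca2 was far larger than this.

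By TPM, a small share of Smarca2 lay on transcripts that encode the whole ATPase. Its leading transcript, Smarca2-215, is annotated for nonsense-mediated decay and held 36.3% in replicate 1 and 33.6% in replicate 2, and 5 shorter coding transcripts each held 5% or more in at least 1 library. Smarca2-201, the full-length transcript, held 13.0% and 14.6%, or 4.25 and 3.82 TPM, and its value in replicate 1 lay above its own interval of 0.634 to 3.88 TPM. By expected counts the order was the other way, since the longer Smarca2-201 held 655 and 705 counts, 40.2% and 43.6% of the gene, against 432 and 383 for Smarca2-215. Of Smarca4, 99.2% and 99.6% of the TPM lay on full-length transcripts. On full-length coding transcripts alone the log2 ratio of Smarca2 over Smarca4 was -4.59 and the share of Smarca2 was 3.91%, against a mean of 22.7% over all transcripts. Dividing expected counts by the length of the longest coding transcript gave -3.22 and 9.70%. Smarca2 was lower under each of these levels, and its share depended on the transcripts counted.

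The 2 main Smarca4 transcripts differ in coding sequence at the start of a pair of exons, and outside it in the last exon. Smarca4-204 held 62.5% of Smarca4 TPM in replicate 1 and 67.2% in replicate 2, and Smarca4-202 held 34.6% and 32.5%. The longer Smarca4-202 has 9 extra bases at the start of exon 29 of its 34 exons (mm10 chr9:21686013-21686021, plus strand) and 3 extra bases at the start of exon 30 (chr9:21699800-21699802). The transcript sequences (GENCODE M21) are shown with 18 bases on either side and the extra bases in capitals, since a read has to cross them to tell these transcripts apart in coding sequence.
Smarca4-202, exon 29: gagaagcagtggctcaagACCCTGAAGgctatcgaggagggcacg
Smarca4-204, exon 29: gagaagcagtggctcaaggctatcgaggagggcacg
Smarca4-202, exon 30: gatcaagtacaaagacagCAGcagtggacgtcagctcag
Smarca4-204, exon 30: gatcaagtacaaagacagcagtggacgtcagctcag
The added lengths are multiples of 3, so both forms keep the reading frame. The 9 bases follow 1357 whole codons, and the 3 bases fall inside a codon. The intervals of the transcripts did not overlap in either library (55.2 to 61.8 and 65.8 to 71.3 TPM for Smarca4-204, 27.6 to 34.8 and 29.9 to 35.0 TPM for Smarca4-202).

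**Figure D3:**
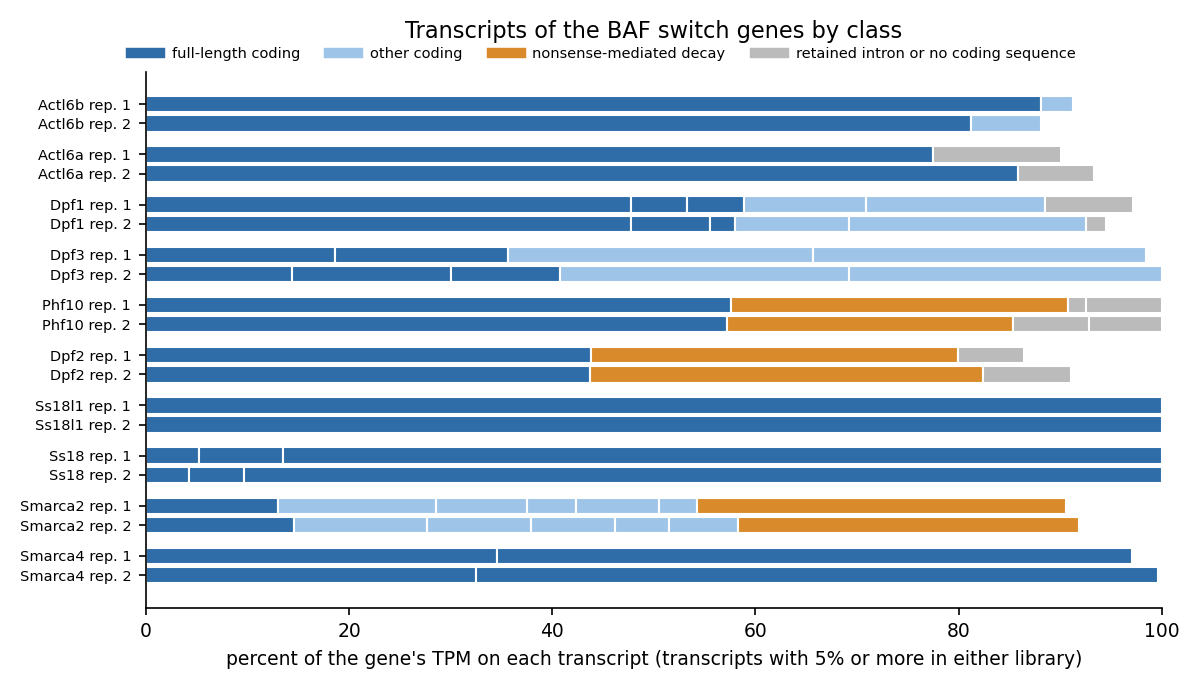
Percent of each member's TPM on transcripts with 5% or more in either library, 1 bar per gene and library, each segment 1 transcript coloured by class. Ss18l1, Ss18 and Smarca4 lie nearly wholly on full-length coding transcripts, whereas Smarca2 has 13.0% and 14.6% there and Phf10, Dpf2 and Smarca2 carry large segments annotated for nonsense-mediated decay.

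**Figure D4:**
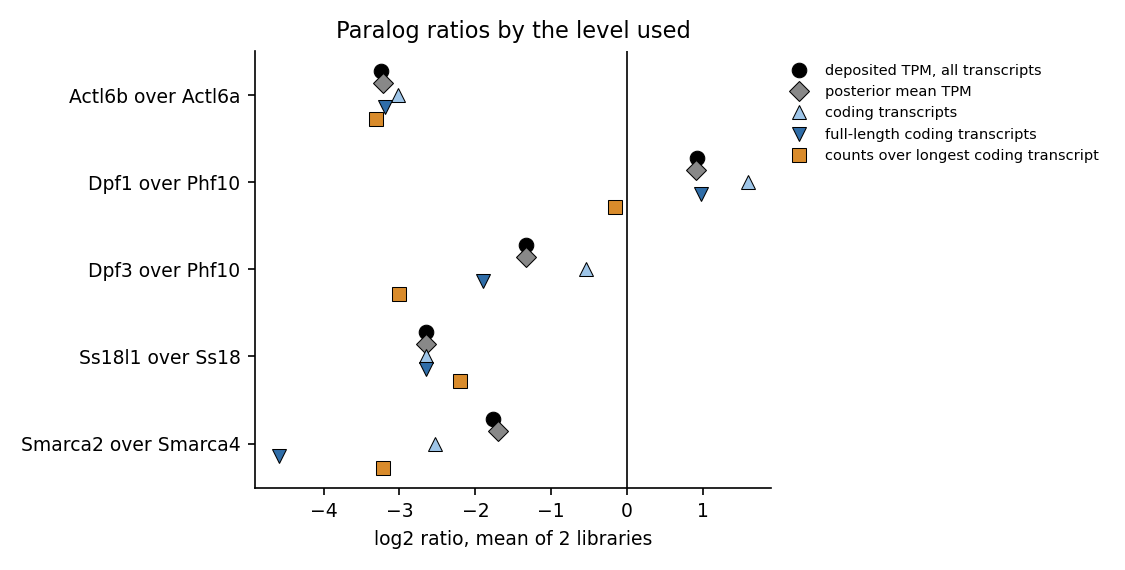
Mean log2 ratio of 5 paralog pairs over the 2 libraries (horizontal axis), computed from the deposited TPM and from 4 other levels of the same genes. Actl6b, Ss18l1 and Smarca2 lie left of 0 throughout, and Dpf1 over Phf10 is the pair that crosses 0, at -0.15 with counts divided by length.

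All 9 members with more than 1 transcript had the same leading transcript in both libraries, against 91.5% of 9585 such genes. Among protein-coding transcripts alone it was 7 of 8 members, against 91.9% of genes, and the exception was Smarca2, led by Smarca2-203 in replicate 1 and by Smarca2-201 in replicate 2. The levels of the members were also compared between the libraries. In a two-sided exact binomial test of each gene's counts, adjusted by the Benjamini-Hochberg method over 17148 genes, 0 of 10 members differed at least 2-fold between replicate 1 and replicate 2, against 2.94% of genes. With no minimum fold, 6 of 10 members passed at an adjusted p under 0.05, against 35.5% of genes. With an assumed coefficient of variation of 0.1 in edgeR's exact test, 0 members passed, against 0.962% of genes. This compares 2 libraries, not conditions, whose spread (edgeR's common biological coefficient of variation) was 7.80% over 14052 genes.

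The differences that passed were small. Dpf3 was 1.36-fold higher in replicate 1 (log2 ratio 0.44, adjusted p = 0.000371), Ss18l1 and Smarca2 were each 1.20-fold higher (log2 ratio 0.26, adjusted p = 7.09e-06 and 3.55e-06, exact binomial test), and Ss18 was 1.05-fold higher. Dpf1 and Smarca4 were lower in replicate 1, at log2 ratios of -0.13 and -0.12. With DESeq2 size factors 6 members passed (35.4% of genes), 4 higher and 2 lower in replicate 1, and with total counts 7 (35.6%), 4 higher and 3 lower. With the libraries scaled to the spike-in RNAs, 7 members passed (38.6% of genes), 3 higher and 4 lower in replicate 1, so the balance of directions depended on the scaling. Markers were counted under the main scaling alone (TMM library sizes), by which 35.5% of all genes passed in either direction. Of the neuronal markers, 6 of 10 were higher and 1 lower in replicate 1 by this test, with a summed level of 1634 TPM in replicate 1 and 1614 TPM in replicate 2. Of the progenitor markers, 1 of 10 was higher and 3 were lower, with 2607 and 2674 TPM. Their part in the members' differences was not tested. For 3 members, Ss18l1, Smarca2 and Smarca4, the deposited intervals of the libraries did not overlap, against 22.4% of detected genes.

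RNA of the other listed subunits was present too. RNA levels, here and for the positions above, do not measure which subunits the complexes held. All 21 other BAF and PBAF subunits listed reached 1 TPM in both libraries, with a median of 43.7 TPM in replicate 1 and 41.9 TPM in replicate 2. Core subunits were high, with Smarcb1 (BAF47) at 204.4 and 210.9 TPM, Smarce1 (BAF57) at 147.8 and 140.6 TPM, and the scaffold subunits Smarcc1 (BAF155) at 78.8 and 72.8 TPM and Smarcc2 (BAF170) at 77.3 and 71.9 TPM. The 3 Smarcd (BAF60) paralogs differed in level, from Smarcd1 at 76.2 and 86.5 TPM over Smarcd3 at 43.7 and 46.9 TPM to Smarcd2 at 17.7 and 20.5 TPM. Among the large DNA-binding subunits, Arid1a had 29.9 and 30.1 TPM and Arid1b, its alternative in canonical BAF, 8.84 and 9.38 TPM. Pbrm1, which defines PBAF, had 105.0 and 102.1 TPM. Lowest were Bcl11b, a zinc-finger factor of cortical projection neurons, with 3.38 and 4.80 TPM, and Bicra and Bicral, the alternative GLTSCR1 subunits of the noncanonical complex, with 3.66 and 4.68 TPM and 4.44 and 4.09 TPM. Actb, a subunit but mostly cytoskeletal, stood far above with 4591 and 4795 TPM.

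**Figure D5:**
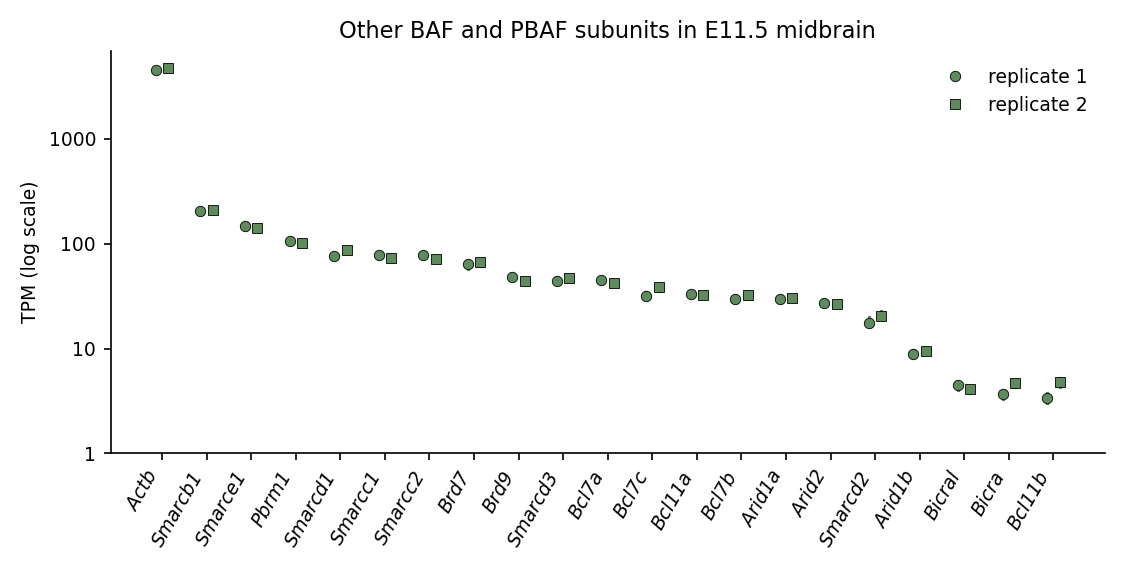
TPM of 21 other BAF and PBAF subunits on a log axis, ordered by mean level, in replicate 1 (circles) and replicate 2 (squares) with the deposited intervals as bars. All lie above 1 TPM, from about 4 TPM for Bcl11b, Bicra and Bicral up to Actb.

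Genes that control the switch were read as well, and all 7 regulators measured of 8 listed reached 1 TPM. The host transcript of Mir9-1 was the listed regulator that matched no measured gene, so its level is not known. Rest had 16.5 TPM in replicate 1 and 14.1 TPM in replicate 2, and its corepressors Rcor1 and Rcor2 had 9.22 and 8 TPM and 25.9 and 28.6 TPM. The other host transcripts of miR-9 were present at 23.6 and 23.2 TPM for C130071C03Rik (Mir9-2) and 36.2 and 38.7 TPM for Mir9-3hg. Those of miR-124 had 28.5 and 24.7 TPM for Mir124a-1hg and 99.2 and 92.1 TPM for Mir124-2hg. The repressor and the measured hosts of the microRNAs it restrains were thus found in the same tissue RNA. Host transcripts do not measure the mature microRNAs, which are shorter than the 200 nt size limit of these libraries.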

How the data were processed

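Total RNA longer than 200 nt was measured in 2 pooled midbrain libraries of 1 group, grouped by the labels. Per the file headers, the deposited values are an expected count (an estimated number of reads), TPM (a maximum likelihood estimate and a posterior mean), FPKM, and interval bounds of TPM, which were treated as a signal of no fixed total and whose level is unstated. The deposited transcript files also give, as a percent, how much of a gene each transcript makes up. The labels name assembly mm10, and the sources used here do not give the aligner, the quantifier or the use of strand. TPM was scaled over all rows, and spike-ins held 15.2% and 14.8% of it. The 96 spike-in rows and 26248 rows with bare numbers stayed out of totals and tests. They held 6.89% and 6.66%, and 1.06e-05% and 2.69e-05%, of the expected counts.

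Symbols and coordinates came from GENCODE M21 (mm10, 1-based) by identifier without version, matching 42462 genes. Several Smarca2 and Ss18 transcripts have another length there than in the deposited files. Members, lists, pairs and motifs were chosen with earlier results of these data known. All members and any gene of the subunit and regulator lists could be named, the 3 highest of each marker list and any at 0, and transcripts with 5% or more of their gene. Pairs were compared as log2 ratios of TPM + 0.1 and called where both libraries had intervals apart in 1 direction. For chosen transcripts the deposited bounds of each transcript were summed, and for counts over length 95% Poisson bounds were used. With 2 libraries the smallest exact sign-flip p is 0.5, so none is given. A full-length transcript has a complete coding sequence of at least 80% of the longest of its gene. Libraries were compared on rounded expected counts, as replicate 1 over replicate 2, with an exact binomial test, two-sided, on TMM library sizes for genes whose counts summed to 20 or more, at adjusted p under 0.05 and 2-fold. Replicates come from separate pools, and reads are amplified, whereas the binomial test covers counting error only. Each SD is taken over the 2 libraries. A count of 3 corresponds to 0.0772 and 0.0653 CPM. Only the test between libraries was tried on simulated counts. These held counting error alone, so the trial did not cover spread between replicates. Tools were R 4.3.3, scipy 1.17.1, numpy 2.4.6, matplotlib 3.10.9, pandas 2.3.3, Python 3.11.15, edgeR 4.0.16 and DESeq2 1.42.0 (size factors as an alternative).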

Additional observations from a re-analysis of the deposited data

How the results depend on the processing

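Of 123 values recomputed under other settings, 109 were counted as the same, 1 reversed, 1 lost its call and 12 moved. The moved values were shares of a pair, which have no direction or threshold, and the count of members differing with no minimum fold. Protein-coding transcripts alone, with their interval bounds summed, ended 1 call, Dpf3 over Phf10 at -0.54. They also moved shares to 10.97% for Actl6b, 75.2% for Dpf1 and 40.7% for Dpf3 (each of the pair with its progenitor paralog) and 14.7% for Smarca2. Full-length coding transcripts alone gave 66.3% for Dpf1, 20.8% for Dpf3 and 3.91% for Smarca2. Counts divided by the length of the longest coding transcript in the tables turned Dpf1 over Phf10 to -0.15 and gave shares of 47.3% for Dpf1, 11.0% for Dpf3, 17.8% for Ss18l1 and 9.70% for Smarca2. The last 2 settings, and intervals for them, were chosen after seeing the data, and the cause of each shift was not tested. With no minimum fold, 6 members differed between the libraries in place of 0. Leaving out either replicate gave log2 ratios from -3.30 to -3.20 for Actl6b, 0.89 to 0.95 for Dpf1, -1.49 to -1.18 for Dpf3, -2.75 to -2.55 for Ss18l1 and -1.99 to -1.55 for Smarca2, each over its paralog. No paired analysis was possible because the labels give 1 group. Depth limits Dpf3 most, with 368 and 321 expected counts over 7 transcripts.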
